A study of Mus musculus with 9 samples.

Results

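Cd36 and 8 genes that carry long-chain fatty acids to and through mitochondrial oxidation were followed across the libraries of an RNA sequencing study of mouse CD8+ T cells. The 9 members are Cd36, Fabp5, Cpt1a, Cpt2, Slc25a20, Acadm, Acadvl, Hadha and Hadhb, taken by symbol from 24391 listed genes. They were selected with the fold changes of this same comparison known, the large difference of Cd36 among them. Their differences between treated and untreated cells are therefore given as descriptions, and where a count of members past a threshold is printed it supports nothing.

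The cells, cytotoxic lymphocytes that attack infected or cancerous cells, were activated for 72 h in medium with interleukin 2 at 100 U/mL. The not treated group (NT) has 5 libraries, and the group activated with an inhibitor of the histone demethylase LSD1 (LSD1i) has 4. Both groups received the same activation and interleukin 2. The sources used here do not give the inhibitor, its dose, the mouse strain or age, or whether replicate numbers mark separate animals or cultures, so errors and p-values cover the variation among these libraries alone, part or all of which may be technical.

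Long-chain fatty acids enter a cell in part through the membrane receptor CD36 and are held in the cytosol by binding proteins such as FABP5. To be burned, they are joined to carnitine by CPT1A on the outer mitochondrial membrane, carried across the inner membrane by the SLC25A20 exchanger and handed back to coenzyme A by CPT2. An acyl-CoA dehydrogenase chosen by chain length, ACADVL for very long and ACADM for medium chains, starts each round of beta-oxidation. The trifunctional protein, made of the HADHA and HADHB subunits, completes the round for long chains. Activated effector T cells are known for relying on glycolysis, whereas memory CD8+ T cells are known for fatty acid oxidation with CPT1A as its gate. On CD8+ T cells in tumours, CD36 is known as a route of uptake for fatty acids and oxidised lipids.

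The raw table held 15163983 to 29245278 counted reads per library. The raw and the batch-corrected table disagree on the names of 4 libraries. Matched by their genes at 0, raw NT 1 and NT 2 correspond to corrected LSD1i 1 and LSD1i 2, and raw LSD1i 1 and LSD1i 2 to corrected NT 1 and NT 2. Each match left 0 genes that were at 0 in a single table, and the next best partner left 1336 or more. The labels do not say which names are right. Values below carry the names of the batch-corrected table unless the raw names are mentioned, and CPM means batch-corrected counts scaled by the TMM library total. Of the 8 T cell markers, Cd3d, Cd3g, Cd8a, Cd8b1, Thy1 and Lck stood above 200 CPM in each of the 9 libraries, Cd2 ran from 166 to 325 CPM and Cd3e from 31.6 to 107 CPM. Cd4 had at most 5 counts in any library.

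Promoter stretches are shown before the values, as context for the member that differed most and for the pair of subunits read from neighbouring genes. They come from RefSeq on build GRCm38.p6, whereas the submitters' processing notes name mm9, so they serve as sequence context only. Each window runs from 250 bases before to 50 bases after a transcript start, and 8 of the 9 members have one. The Cd36 window, at chr5:17835847-17836146 on the minus strand, holds a stretch of 16 bases in 2 adjoining copies, beginning 111 and 95 bases before the start, printed in capitals, and each copy contains a GC box (GGGCGG on either strand). Its GC content was 43.0%, the lowest of the 8 windows. The start of this window lies 53063 bases inside the annotated gene, so transcripts can also begin upstream of it, and counts per gene do not tell the starts apart. The second stretch, at chr5:30155003-30155230 and given on the plus strand, is the part that the windows of Hadha and Hadhb share. These genes are transcribed away from each other from starts 273 bases apart, and the capitals mark the 1 GC box in the shared part.
Cd36 promoter window: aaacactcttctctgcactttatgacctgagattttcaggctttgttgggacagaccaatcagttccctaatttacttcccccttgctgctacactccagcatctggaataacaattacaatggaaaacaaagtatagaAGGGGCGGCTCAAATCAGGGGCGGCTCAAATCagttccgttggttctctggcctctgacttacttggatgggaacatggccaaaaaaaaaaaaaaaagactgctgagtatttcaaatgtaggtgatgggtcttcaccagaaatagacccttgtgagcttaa
Hadha and Hadhb shared window: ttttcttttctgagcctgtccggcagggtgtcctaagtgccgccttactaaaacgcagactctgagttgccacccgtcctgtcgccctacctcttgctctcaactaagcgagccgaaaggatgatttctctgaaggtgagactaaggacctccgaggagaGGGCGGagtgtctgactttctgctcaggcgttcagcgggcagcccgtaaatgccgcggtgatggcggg

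Motifs of factors that are known regulators of fatty acid oxidation genes were searched on both strands of the 8 windows. The direct repeat of AGGTCA with 1 base between its copies, the element bound by peroxisome proliferator-activated receptors with RXR, had a match in 0 of the 8 member windows and in 0.0396% of all 32851 windows. The element TCAAGGTCA of estrogen-related receptors had a match in 0 of 8, against 0.423% of all windows. The hexamer AGGTCA, which is contained in both longer motifs, was found in 4 of 8 (Cd36, Cpt1a, Acadm and Acadvl) against 16.3%. A GC box was found in 6 of 8 against 35.7%, and the hexamer TATAAA in 0 of 8 against 13.6%. These are letter matches within a window of 300 bases and say nothing of binding.

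Cd36, the membrane receptor, was the member that differed between the groups. It had 1.91, 2.97, 2.75, 2.17 and 4.45 CPM across NT libraries 1 to 5, against 0.331, 0.774, 0.176 and 0.472 CPM across LSD1i libraries 1 to 4. Each LSD1i library was below each NT library, and NT 5 stood highest. The means were 2.85 ± 0.993 CPM in NT (SD, n = 5) and 0.438 ± 0.254 CPM in LSD1i (n = 4), a log2 fold change of −2.67 ± 0.38 (SE), or 6.38-fold lower. Among all 11981 tested genes this was the third most negative fold change. As a description of the values that selected it, Cd36 was the 1 of 9 members below an adjusted p of 0.05 in edgeR's quasi-likelihood test, where 3.31% of all tested genes passed, 1.16% as lower and 2.15% as higher in LSD1i. It was also the 1 member whose groups did not overlap, which held for 7.86% of tested genes in either direction and for 3.46% as lower and 4.41% as higher. In the authors' deposited table its log2 fold change is −2.65, and it is the 1 member marked DOWN while the other 8 are marked NS. That table marks 0.219% of its 20052 genes DOWN and 0.469% UP.

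**Figure D1:**
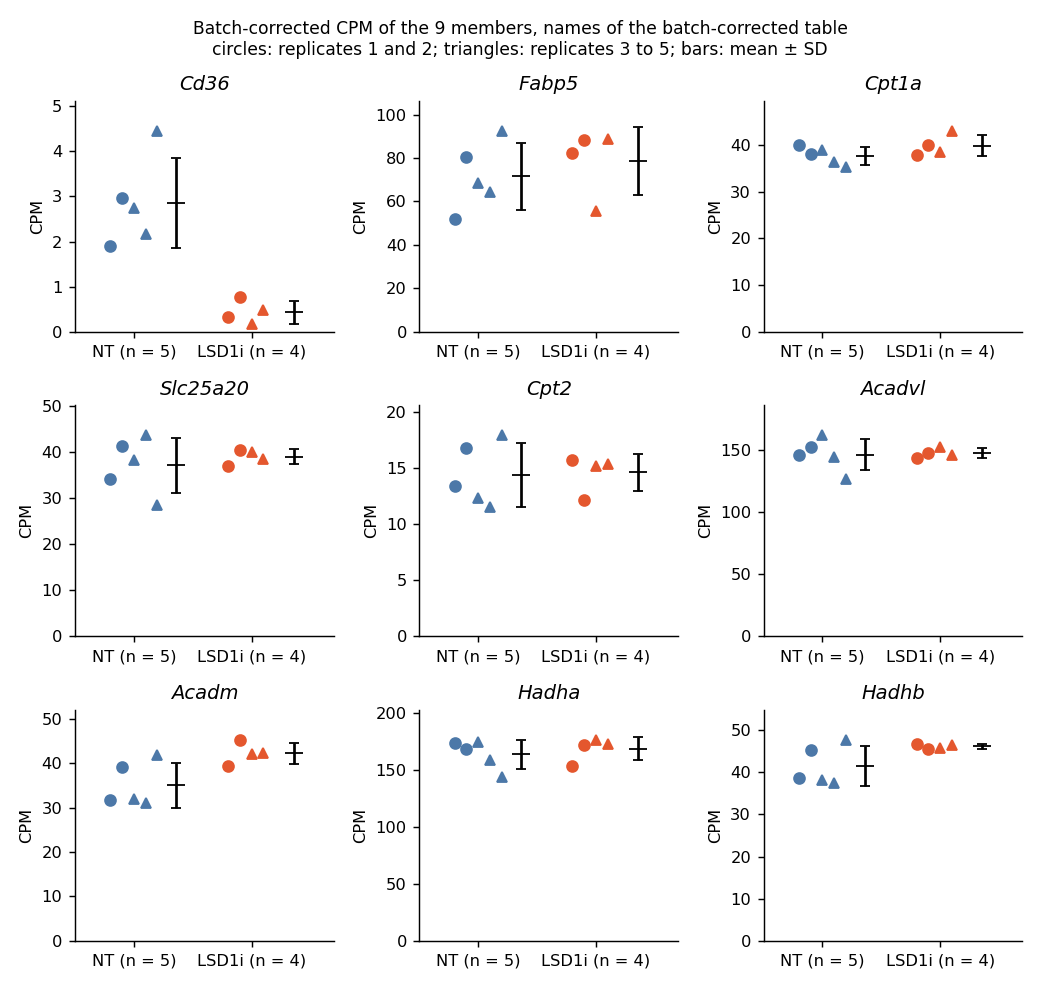
Batch-corrected CPM of each member in each library, with NT in blue and LSD1i in orange, circles for replicates 1 and 2, triangles for replicates 3 to 5, and bars for the mean ± SD (n = 5 and 4). Cd36 is the member whose groups separate, at 1.91 to 4.45 CPM in NT and 0.176 to 0.774 CPM in LSD1i, while the other 8 overlap.

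At these levels Cd36 rests on few reads. The raw libraries that the batch-corrected table names NT held 39, 44, 62, 50 and 79 Cd36 reads, and those it names LSD1i held 5, 16, 3 and 9. Pooled by these names, 274 of 107721186 reads gave 2.54 raw CPM (exact Poisson 95% interval 2.25 to 2.86) in NT, and 33 of 77426834 gave 0.426 (0.293 to 0.599) in LSD1i. The intervals do not meet, but they cover counting error only. With the names of the raw table, NT held 5, 16, 62, 50 and 79 reads and LSD1i held 39, 44, 3 and 9, so that the groups overlapped. The log2 fold change was then −0.80 ± 0.79, with 0 of 11916 genes past the threshold in edgeR's test (172 at an unadjusted p under 0.05, and a percentage called of 0). The contribution of replicates 1 and 2 to the difference thus depends on which names are right. In raw counts under the names of the batch-corrected table, the log2 fold change was −1.95 ± 0.61 within replicates 1 and 2. It was −3.29 ± 0.41 within replicates 3 to 5, a set that carries the same names in both tables. With raw counts, the names of the batch-corrected table and a batch term it was −2.61 ± 0.42, and without the batch term −2.67 ± 0.43. Over all tested genes edgeR called 0.0676% within replicates 1 and 2, 0.969% within replicates 3 to 5, 1.85% with the batch term and 0.705% without it. Leaving out any 1 library gave −3.08 (without LSD1i 2) to −2.42 (without LSD1i 3).

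**Figure D2:**
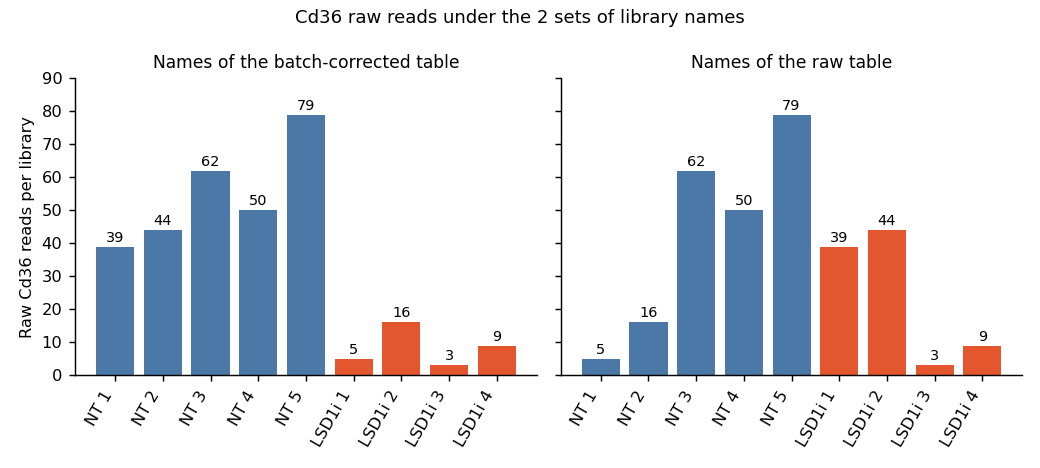
Raw Cd36 reads in each library, with the number above each bar, under the names of the batch-corrected table on the left and of the raw table on the right, NT in blue and LSD1i in orange. With the first set of names NT spans 39 to 79 and LSD1i 3 to 16 reads, and with the second NT spans 5 to 79 and LSD1i 3 to 44.

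Cells other than CD8+ T cells also express Cd36, among them macrophages, platelets, endothelium, adipocytes and some B cells, and in bulk RNA fewer cells of a type and less RNA per cell cannot be told apart. Of 15 myeloid markers, 2 were tested and 1 rose, Mpeg1, while the sum of the list ran from 7.52 to 11.9 CPM in NT and from 11.3 to 15.6 CPM in LSD1i. Cd68 made up most of that sum, and Lyz2, Csf1r, Cd14 and C1qa had at most 1 count in any library. Itgam had 3 to 10 counts in each library and Itgax 8 to 13 counts in NT and 3 to 9 in LSD1i. Adgre1, with up to 4 counts, and Fcgr1, with up to 2, were seen in NT and at 0 in each LSD1i library. The 12 platelet and erythroid markers summed to 0.923 to 2.05 CPM in NT and 1.24 to 1.60 CPM in LSD1i, most of it Itga2b, and 5 were at 0 in every library. The 6 endothelial and adipocyte markers summed to 0.0659 to 0.356 CPM in NT and 0.110 to 0.585 CPM in LSD1i. The 7 B cell markers summed to 11.2 to 12.5 CPM in NT and 8.12 to 9.38 CPM in LSD1i, of which Cd79b alone, the 1 that fell, had at least 7.98 CPM in every library. Ms4a1, Cd79a and Pax5 had at most 4 counts each. Of 4 CD4 and regulatory T cell markers 2 were tested and 1 rose, Cd40lg, the list summing to 28.4 to 46.5 CPM in NT and 39.4 to 46.9 CPM in LSD1i. The 8 T cell markers summed to 2290 to 2545 CPM in NT and 2579 to 2735 CPM in LSD1i, and 1 of them, Cd8a, rose. The part of the myeloid, B cell, CD4 and T cell lists in the Cd36 difference was not tested.

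The tested genes most like Cd36 over the 9 libraries were Tgm2, Rai14, Gpr141, Lilrb4a and Mcf2l, by the root-mean-square difference of log2(CPM + 0.5) centred on each gene's mean. The distance spans both groups, so it includes the group difference that selected Cd36, and the likeness is a description only. All 5 were lower in LSD1i, with log2 fold changes of −1.63, −1.96, −2.62, −1.24 and −1.25 in that order. The added 0.5 is above the Cd36 mean of 0.438 CPM in LSD1i and narrows its group difference. This difference was 0.222 for Tgm2, a transglutaminase, 0.305 for Rai14, 0.323 for the orphan receptor Gpr141, 0.362 for the inhibitory receptor Lilrb4a and 0.387 for Mcf2l, against a median of 0.985 over 11192 genes with a mean of at least 1 CPM. Tgm2 had 78.3, 145, 85.7, 102 and 195 CPM across NT libraries 1 to 5, against 33.1, 51.8, 29.6 and 41.5 CPM across LSD1i libraries 1 to 4. As with Cd36, NT 5 was highest among NT and LSD1i 2 highest among LSD1i, a likeness that the choice by distance over the libraries favours. Gpr141 had 4.77 ± 1.90 CPM in NT (n = 5) and 0.768 ± 0.355 CPM in LSD1i (n = 4).

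Fabp5, the cytosolic carrier, overlapped between the groups. It had 51.9, 80.5, 68.3, 64.5 and 92.5 CPM across NT libraries 1 to 5, against 82.2, 88.2, 55.4 and 89.0 CPM across LSD1i libraries 1 to 4. NT 1 and LSD1i 3 were lowest and NT 5 was highest, a spread that makes Fabp5 the most variable member after Cd36. Its log2 fold change was 0.14 ± 0.18, and it was 0.33 ± 0.22 within replicates 1 and 2 and −0.08 ± 0.26 within replicates 3 to 5. With the raw names it was −0.20 ± 0.20, so its sign was not stable across replicate sets or names. Fabp5 has near-identical processed copies in the genome, which can take or lend reads, and it has no promoter window among the 8.

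In the carnitine shuttle, Cpt1a, the gate of mitochondrial import, was the steadiest member. It had 40.0, 38.1, 38.9, 36.4 and 35.3 CPM across NT libraries 1 to 5, against 37.9, 40.0, 38.5 and 43.0 CPM across LSD1i libraries 1 to 4. All 9 values lay between 35.3 and 43.0 CPM, and the log2 fold change was 0.08 ± 0.08. Slc25a20, the carnitine and acylcarnitine exchanger, had 34.1, 41.4, 38.2, 43.7 and 28.6 CPM across NT libraries 1 to 5, against 37.1, 40.5, 40.1 and 38.5 CPM across LSD1i libraries 1 to 4. The LSD1i values fell inside the NT range, and the log2 fold change was 0.07 ± 0.12. Cpt2, which returns the acyl group to coenzyme A in the matrix, had 13.4, 16.8, 12.4, 11.5 and 17.9 CPM across NT libraries 1 to 5, against 15.8, 12.2, 15.2 and 15.4 CPM across LSD1i libraries 1 to 4. Its LSD1i values also lay inside the NT range, with a log2 fold change of 0.03 ± 0.15.

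These 3 shuttle genes, singled out after their values were seen, differed between the sets of replicate numbers by more than between the groups. Before the authors' correction, Cpt2 had 19.4 ± 1.32 raw CPM (SD) in the 4 libraries of replicates 1 and 2 and 11.0 ± 2.71 raw CPM in the 5 of replicates 3 to 5. The batch term, second set over first, was −0.81 ± 0.17 on the log2 scale. Slc25a20 went the other way, with 30.5 ± 4.20 and 43.2 ± 2.86 raw CPM and a batch term of 0.51 ± 0.11. Cpt1a had 40.9 ± 1.05 and 35.3 ± 2.83 raw CPM and a batch term of −0.21 ± 0.09. For each of the 3 the raw values of the sets did not overlap, for Cpt1a by the narrow margin of 39.9 against 39.8 raw CPM, whereas those of the other 6 members did. The sets did not overlap for 29.8% of all 11981 tested genes, so 3 of 9 members is near the background and is no result about the members. The ratio of Cpt1a to Cpt2 reads therefore ran from 1.92 to 2.38 in the raw libraries of the first set and from 2.20 to 4.12 in the second, and after correction from 2.27 to 3.29 and from 1.97 to 3.16. The labels give no batch, and these sets are a split by replicate number, made with the difference between the tables known. Their overlap after correction is therefore no independent finding, and what separates them cannot be told from the labels.

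**Figure D3:**
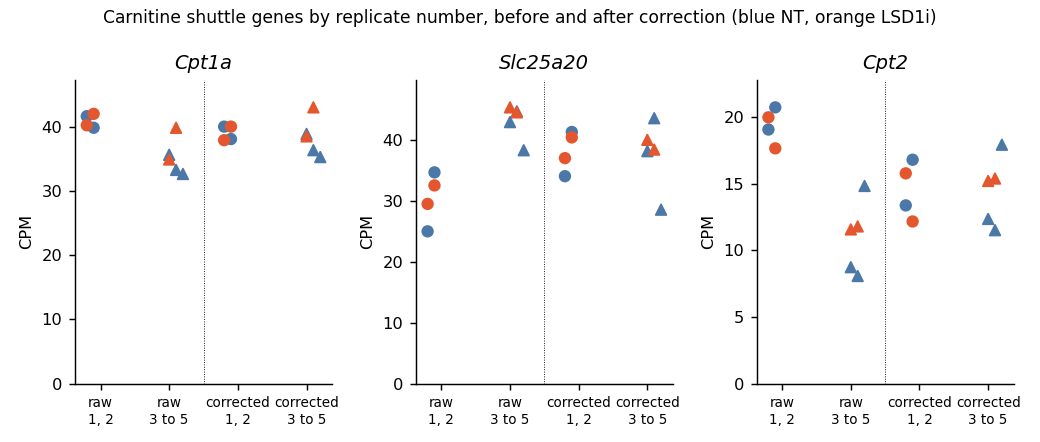
CPM of Cpt1a, Slc25a20 and Cpt2 in the libraries of replicates 1 and 2 (circles) and 3 to 5 (triangles), before correction on the left and after it on the right of each panel, with NT in blue and LSD1i in orange. The raw sets are apart, Cpt2 at 17.7 to 20.7 CPM against 8.08 to 14.8 CPM, and the corrected sets overlap.

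Of the dehydrogenases, Acadvl hardly varied. It had 146, 152, 162, 144 and 127 CPM across NT libraries 1 to 5, against 144, 148, 153 and 146 CPM across LSD1i libraries 1 to 4, a log2 fold change of 0.01 ± 0.08. NT 5 was lowest, and the LSD1i values lay inside the NT range. Acadvl shares 976 exon bases with Dvl2 on the opposite strand in GENCODE M21, and no source used here gives the strand setting of the counting, so reads there cannot be told apart. Acadm, the medium-chain enzyme, had 31.6, 39.0, 31.8, 30.9 and 41.9 CPM across NT libraries 1 to 5, against 39.4, 45.2, 42.1 and 42.2 CPM across LSD1i libraries 1 to 4. Its LSD1i values were above those of NT 1 to NT 4, but NT 5 reached into their range. The means were 35.1 ± 5.06 and 42.2 ± 2.38 CPM, a log2 fold change of 0.27 ± 0.11, the largest among the 8 members other than Cd36 and not past the threshold. Leaving out 1 library moved it between 0.23 and 0.35, and with the raw names it was 0.02 ± 0.16.

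The subunits of the trifunctional protein each overlapped between the groups. Hadha had 173, 168, 175, 159 and 144 CPM across NT libraries 1 to 5, against 154, 172, 176 and 173 CPM across LSD1i libraries 1 to 4, a log2 fold change of 0.04 ± 0.08. Hadhb had 38.6, 45.3, 38.2, 37.6 and 47.7 CPM across NT libraries 1 to 5, against 46.7, 45.4, 45.8 and 46.5 CPM across LSD1i libraries 1 to 4, a log2 fold change of 0.15 ± 0.09. The coefficient of variation of Hadhb was 1.27% in LSD1i and 11.2% in NT, and NT 5 was the NT library above all of them but low for Hadha. The ratio of Hadha to Hadhb varied among libraries, and its relation to the shared promoter stretch printed above was not tested. Hadha reads over Hadhb reads, after correction, were 4.49, 3.72, 4.57, 4.22 and 3.01 across NT libraries 1 to 5, against 3.29, 3.79, 3.85 and 3.71 across LSD1i libraries 1 to 4. The LSD1i values, with a mean of 3.66 ± 0.252 (n = 4), lay inside the NT range. Hadha shares 75 exon bases with Garem2 on the opposite strand, to which the same limit applies.

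After correction, NT 5 stood at an end of the NT range in each of the 9 members. It was the highest NT library for Cd36, Fabp5, Cpt2, Acadm and Hadhb and the lowest for Cpt1a, Slc25a20, Acadvl and Hadha. Before correction, NT 2 was highest for Cpt2 (20.7 raw CPM, NT 5 at 14.8). NT 1 was then lowest for Slc25a20 (25.1, NT 5 at 38.4) and Acadvl (131, NT 5 at 136). How often NT 5 was at an end over all tested genes was not counted. Without NT 5 the log2 fold change of Cd36 was −2.44 ± 0.33 and that of Fabp5 0.25 ± 0.17.

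Per kilobase of exon (GENCODE M21 basic annotation, a build other than the files'), the untreated levels of the members fell into steps. Fabp5 (72.5 ± 15.7 CPM per kb, SD, n = 5) and Acadvl (67.5 ± 5.88) were highest and overlapped. Hadha followed at 40.8 ± 3.21, clear of Acadvl above it and of the genes below. Slc25a20 (20.9 ± 3.36), Hadhb (19.9 ± 2.24) and Acadm (17.1 ± 2.47) overlapped one another. Cpt1a at 8.74 ± 0.443 lay below these and above Cpt2 at 6.07 ± 1.19, without overlap on either side after correction. Before correction Cpt2 reached 20.7 raw CPM over 2372 exon bases (NT 2). Cpt1a went down to 32.7 raw CPM over 4317 exon bases (NT 5), so per kilobase these 2 genes then overlapped. Cd36 was lowest by far at 0.805 ± 0.281 CPM per kb, so the receptor that differed was also the scarcest transcript of the 9. In LSD1i it stood at 0.124 ± 0.0720 CPM per kb (n = 4).

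Over the 9 members the median log2 fold change was 0.07, against −0.02 over all tested genes. Fold changes were above 0 for 8 of 9 members and for 45.6% of tested genes, and the 8 ran from 0.01 to 0.27. Of these, Acadvl, Cpt2, Hadha, Slc25a20 and Cpt1a lay within 0.1 of 0, as did 43.8% of tested genes. Only Acadm and Hadhb stayed above 0 in all 20 other settings, so no shared direction is read from the 8. Spread within groups, as the SD of log2(CPM + 0.5), ran from 0.0759 for Cpt1a to 0.395 for Cd36 with a median of 0.160, and its median over all tested genes was 0.186.

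The other genes of fatty acid handling were taken from 6 lists by role, 85 genes in all, of which 70 could be tested. In edgeR's test 2 rose, 2 fell and 66 did not pass, or 5.71% called against 3.31% of all tested genes, and their median log2 fold change was 0.02. Those that passed were regulators, a lipid droplet protein and a peroxisomal transporter, and 0 were enzymes of mitochondrial beta-oxidation. At a background of 3.31%, few calls are expected in lists of 4 to 17 tested genes, so no contrast between the lists is drawn.

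**Figure D4:**
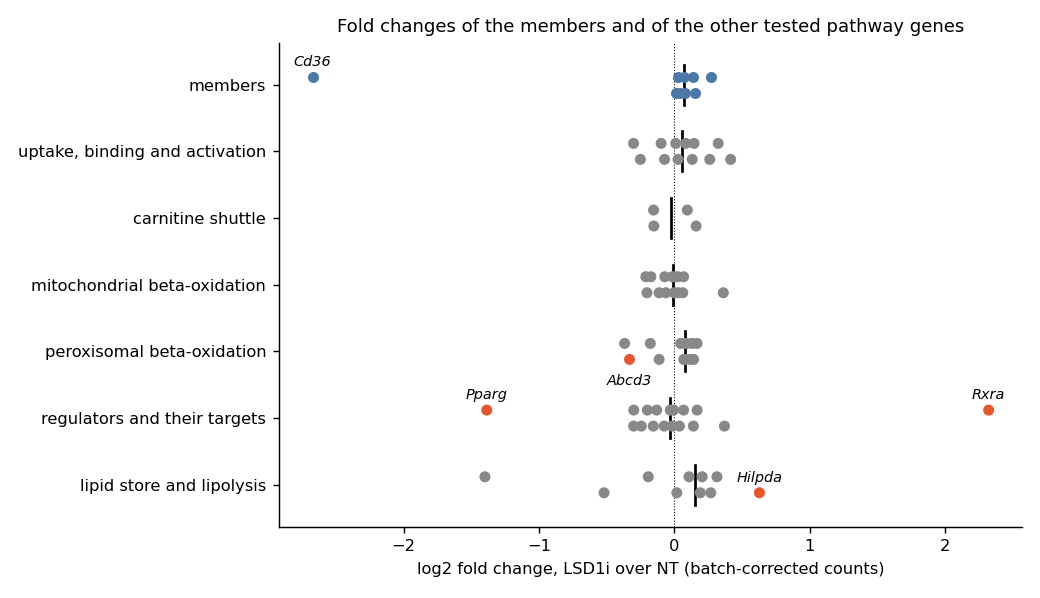
Log2 fold change of LSD1i over NT for the 9 members (blue) and the 70 other tested pathway genes by list, with genes past an adjusted p of 0.05 in orange, the rest in grey and the median of each row as a black bar. Apart from Cd36 the members lie between 0.01 and 0.27, and the orange points are Rxra, Hilpda, Abcd3 and Pparg.

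Among regulators and their targets, 1 of 17 tested genes rose and 1 fell, both nuclear receptors that pair with each other on DNA. Rxra, the partner of the peroxisome proliferator-activated receptors (PPARs), had 1.79, 2.90, 2.32, 1.96 and 3.20 CPM across NT libraries 1 to 5, against 13.0, 12.4, 9.54 and 13.5 CPM across LSD1i libraries 1 to 4. The groups lay far apart, and the log2 fold change was 2.32 ± 0.18 (edgeR adjusted p = 4.01e-05). It was 2.49 within replicates 1 and 2 and 2.22 within replicates 3 to 5 in raw counts, where the libraries named NT held 26 to 71 reads and those named LSD1i 117 to 383. The call held without each library in turn and with the batch term. With the raw names it was −0.61 and did not pass (adjusted p = 0.999), the range over 20 other settings being 6.43e-28 to 0.999.

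Pparg, the PPAR best known from fat cells and macrophages and a known activator of Cd36 there, had 1.11, 0.923, 0.853, 1.00 and 1.91 CPM across NT libraries 1 to 5, against 0.386, 0.671, 0.351 and 0.378 CPM across LSD1i libraries 1 to 4. It fell by 1.39 on the log2 scale (SE 0.33, edgeR adjusted p = 0.0450), at 6 to 10 raw reads in the libraries named LSD1i and 13 to 56 in those named NT. The groups did not overlap, and NT 5 was highest, as for Cd36. It no longer passed with the batch term (adjusted p = 0.107) and in 7 of 9 fits that left out a library (up to 0.156), all but NT 5 and LSD1i 2. It passed in 6 of 20 other settings, and with the raw names it was −0.75 (edgeR adjusted p = 0.999). Other partners and relatives did not pass, Rxrb at −0.03 ± 0.10 and Ppard at 0.07 ± 0.28. Ppara had at most 7 batch-corrected counts in any library and Ppargc1a at most 3, and neither could be tested. Pdk4, a widely used PPAR target, had at most 1 count. Angptl4, another PPAR target, was 0.37 ± 0.16 higher without passing (edgeR adjusted p = 0.325).

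**Figure D5:**
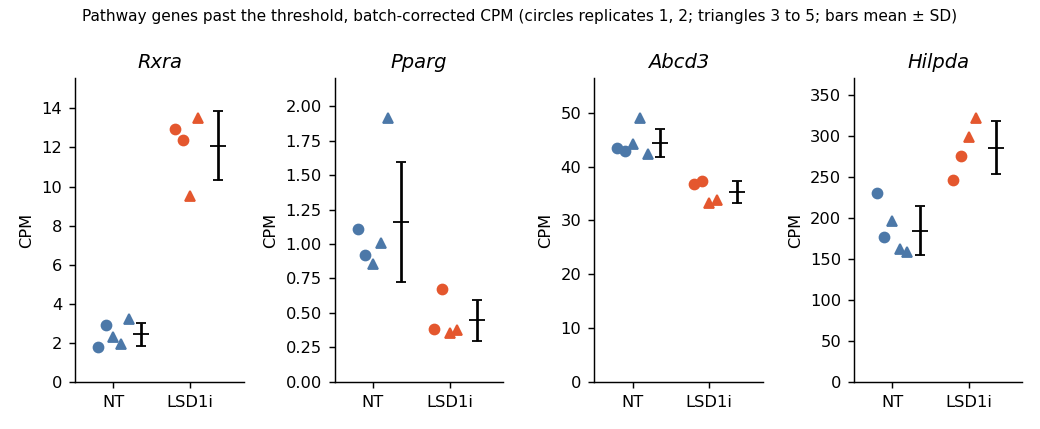
Batch-corrected CPM in each library of the 4 pathway genes past the threshold, with NT in blue, LSD1i in orange, circles for replicates 1 and 2, triangles for replicates 3 to 5, and bars for the mean ± SD (n = 5 and 4). Rxra runs from 1.79 to 3.20 CPM in NT and 9.54 to 13.5 CPM in LSD1i, and Pparg from 0.853 to 1.91 and 0.351 to 0.671 CPM.

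Of 10 genes of the lipid store and lipolysis, 1 rose and 0 fell in edgeR's test, with 5 at an unadjusted p under 0.05, while DESeq2 called Plin3 higher and Lipe lower as well. Hilpda, a small lipid droplet protein that restrains lipolysis and is also induced by hypoxia, had 230, 177, 196, 162 and 158 CPM across NT libraries 1 to 5, against 247, 276, 299 and 322 CPM across LSD1i libraries 1 to 4. Each LSD1i library was above each NT library, with a log2 fold change of 0.63 ± 0.12 (edgeR adjusted p = 0.0165). It was 0.27 within replicates 1 and 2 and 0.81 within replicates 3 to 5, and it passed in 13 of 20 other settings. In edgeR's test it did not pass under the batch term (adjusted p = 0.0558) or without LSD1i 4 (0.0713). With the replicate block its edgeR adjusted p was 0.0571 in batch-corrected and 0.0733 in raw counts. With the raw names it was 0.40 (edgeR adjusted p = 0.999). Lipe, the hormone-sensitive lipase, had 16.0 ± 1.84 and 11.1 ± 2.02 CPM without passing (−0.52 ± 0.14, edgeR adjusted p = 0.0703), and passed in edgeR's test without NT 1 (0.0492) and in DESeq2 (0.0217). Mgll, the monoglyceride lipase, had the most negative value of the list at a low level, 1.22 CPM in NT and 0.457 CPM in LSD1i (−1.40 ± 0.50), and did not pass. The list's median log2 fold change was 0.15, with 7 of 10 genes above 0.

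Peroxisomal beta-oxidation, which shortens very long chains, had 0 of 13 tested genes higher and 1 lower in edgeR's test, with 2 at an unadjusted p under 0.05, while DESeq2 called Crot lower as well. Abcd3, a transporter that brings fatty acids into peroxisomes, had 43.5, 43.0, 44.1, 49.0 and 42.4 CPM across NT libraries 1 to 5, against 36.9, 37.3, 33.3 and 33.7 CPM across LSD1i libraries 1 to 4. The groups did not overlap, and it fell by 0.33 on the log2 scale (SE 0.08, edgeR adjusted p = 0.0475). It missed the threshold under the batch term (adjusted p = 0.0950) and in 8 of 9 fits that left out a library, all but NT 5 (up to 0.162). It passed in 4 of 20 other settings, and with the raw names it was −0.13 (edgeR adjusted p = 0.999). Crot, which passes shortened chains on as carnitine esters, was at 61.1 ± 7.08 CPM in NT and 47.3 ± 1.84 CPM in LSD1i (−0.37 ± 0.09). Its adjusted p was 0.0606 in edgeR's test, 0.0263 in edgeR's test without NT 5 and 0.0178 in DESeq2.

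Among 14 other genes of mitochondrial beta-oxidation 0 passed in edgeR's test, 1 of them at an unadjusted p under 0.05, while DESeq2 called 1, Acaa2. Their median log2 fold change was −0.01, with 6 of 14 above 0. Acaa2, the mitochondrial thiolase, came nearest, at 51.7 ± 6.11 CPM in NT and 66.5 ± 6.19 CPM in LSD1i with no overlap (0.36 ± 0.10, edgeR adjusted p = 0.0974). Acadl, the long-chain dehydrogenase, was at 93.3 ± 19.0 and 80.7 ± 6.43 CPM (−0.21 ± 0.14, edgeR adjusted p = 0.559).

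Among 4 other genes of carnitine handling that were tested 0 passed in edgeR's test or in DESeq2, with 0 at an unadjusted p under 0.05. Slc22a5, the carnitine importer, was at 14.2 ± 1.44 CPM in NT and 12.7 ± 0.461 CPM in LSD1i (−0.15 ± 0.10), and Crat, the short-chain acyltransferase, at 9.66 ± 1.13 and 8.71 ± 1.36 CPM (−0.15 ± 0.14). Cpt1b, the muscle form of the gate enzyme, had at most 10 counts and was not tested. Of 12 tested genes of uptake, binding and activation 0 passed in edgeR's test or in DESeq2, with 2 at an unadjusted p under 0.05. These were Slc27a4, a fatty acid transport protein, at 26.6 ± 3.64 and 33.3 ± 3.36 CPM (0.32 ± 0.12, edgeR adjusted p = 0.202), and Vldlr, a lipoprotein receptor, at 63.1 ± 13.8 and 84.3 ± 22.8 CPM (0.42 ± 0.18, 0.327). Vldlr was at −0.14 within replicates 1 and 2 and at 0.64 within replicates 3 to 5, where it passed (edgeR adjusted p = 0.0396), and the difference between the sets was not tested. The other scavenger receptors of that list were Scarb1, at 53.8 CPM in NT and 51.1 CPM in LSD1i (−0.07 ± 0.07), and Msr1, with at most 1 count. Of the other binding proteins listed, Fabp4 had 0 counts in every library, Fabp3 at most 3 and Fabp7 at most 1, which leaves Fabp5 as the fatty acid binding protein of the list with a measurable level.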

How the data were processed

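Expression was measured by RNA sequencing in 9 libraries of mouse CD8+ T cells, grouped by their titles into NT (5) and LSD1i (4). The authors deposited raw read counts, batch-corrected estimated counts (whole numbers, correction method not given in the sources used here) and their own comparison of the groups as log2 fold changes, a test score (F) and p-values. Of that table only fold changes and marks were used. STAR, featureCounts and edgeR with build mm9 were used per the submitters' processing notes, with versions and strand settings not given in the sources used here. Rows without a gene name numbered 0.

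Libraries were matched between tables by genes at 0. Counts were tested with edgeR 4.0.16 (R 4.3.3; quasi-likelihood, group only, TMM, filterByExpr with minimum count 10 and total 15, Benjamini-Hochberg over all tested genes, threshold 0.05), checked on simulated data. The ± beside a log2 fold change is the standard error of the unshrunk coefficient. Alternatives used DESeq2 1.42.0, limma 3.58.1, other scalings and filters, raw counts and left-out libraries. The members and lists were chosen with earlier results of these data known. Named from each list were the genes past the threshold and the 2 with the smallest p, and further members of a list are named where a level bears on the members, chosen after their values were seen. The 5 genes most like Cd36 were named by a fixed distance.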

Additional observations from a re-analysis of the deposited data

Results flagged for a closer look

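Of 18 sets of values, the 9 members in each group, 1 held a library far from the others. Cpt2 was at 12.2 CPM in LSD1i 2, whereas the other LSD1i libraries were at 15.2 to 15.8 CPM, a gap of 0.843 of the whole range, above Dixon's 95% critical value for 4 samples. Chance alone flags about 1 in 20 such sets. Before correction this library had 17.7 raw CPM of Cpt2, the lowest of the 4 libraries of replicates 1 and 2.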

How the results depend on the processing

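The 397 genes called overall became 0 with the raw names, 220 with the batch term, 656 with DESeq2, 8 within replicates 1 and 2, 117 within replicates 3 to 5, and 84 with raw counts and no batch term under the corrected names, a fit chosen after seeing the data. Leaving out 1 library gave 219 (without LSD1i 4) to 432 (without NT 1), with 228 without LSD1i 1 and 251 without LSD1i 3. The 4 other pathway genes called became 0, 1, 8, 0, 3 and 1 in the same order, and 1 (without LSD1i 4) to 6 (without NT 5) without 1 library, with 2 without NT 2, NT 3, NT 4, LSD1i 1 or LSD1i 3. With the replicate block the pathway count was 1, Rxra, in the batch-corrected and in the raw counts, and the overall counts were 326 and 352. Replicate numbers were not taken as pairs, since deviations of same-numbered libraries correlated at −0.299 to 0.232 over 4 pairs. Of 180 fold changes of members under 20 other settings, 171 moved by less than the spread between replicates and 9 by more. The settings reuse the same libraries, and leaving out 1 library shifts a mean little, so these counts give no independent support. A change of sign can also count as a small move. Acadvl and Cpt2 were above 0 in 16 of 20 settings, with 0 counted as moved. Cd36 stayed below 0 in all 20, from −3.29 to −0.80, which describes the values that selected it. Acadm and Hadhb stayed above 0. Cd36 is limited by depth, at 3 to 16 raw reads in the libraries named LSD1i.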
